A study of Homo sapiens with 12 samples.

Results

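The genes described here encode the keratins, the claudins and the other proteins that epithelial cells use to hold on to each other. They were chosen by symbol alone: protein-coding genes of the keratin, claudin, cadherin, desmocollin, desmoglein, plakophilin, connexin and zonula occludens families, with OCLN, DSP, JUP, PERP, MARVELD2 and MARVELD3. This gave 93 of the 14118 genes with a named probe set. RefSeq names 138 protein-coding genes in these families, and the other 45, among them CDH1, PERP and all 14 connexins, are not analysed here. Measured members comprised 7 simple epithelial keratins, 27 other keratins, 13 hair keratins, 26 claudins and claudin-domain genes, and 13 desmosome genes. The remaining 7 were 5 genes for MARVEL and plaque proteins of the tight junction (OCLN, MARVELD2, MARVELD3, TJP1 and TJP3) and 2 atypical cadherins (CDH23 and CDH26).

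RNA of RKO, SW48 and HCT116, 3 colorectal cancer cell lines that the labels give as wild type for p53, was hybridised to 12 Affymetrix Human Gene 2.0 ST arrays. Each line was either exposed to 10 µM Nutlin-3a for 8 h or left untreated, and each of these 6 groups has 2 arrays. Nutlin-3a is a small molecule that keeps MDM2 from binding p53, and the series asks which genes follow p53 in these lines. No genotype other than p53 status is given, each line stands for 1 tumour, and the labels do not say whether duplicates came from separate cultures. The p-values therefore reflect only how far these arrays scatter, which may be technical.

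Keratins are intermediate filament proteins that assemble as pairs of 1 acidic type I and 1 basic type II chain, and each epithelium uses its own pairs. Claudins and the MARVEL proteins seal the space between neighbouring cells at the tight junction, where ZO proteins anchor them to actin. Desmosomes join cells mechanically: desmogleins and desmocollins bridge the gap, and plakoglobin, plakophilins and desmoplakin tie them to the keratin filaments inside. Colonic epithelium is a simple epithelium that uses KRT8, KRT18, KRT19 and KRT20 with DSG2 and DSC2, whereas KRT5, KRT15, DSG3 and DSC3 are known from the basal layer of stratified epithelia such as skin.

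Values are log2 signals, and differences are log2 fold changes ± standard error from 1 limma model of all 12 arrays. A gene is said to have risen, fallen or differed where its p-value, adjusted over all 14118 genes, was under 0.05. The table carries no detection calls, so a low signal does not show that a transcript was missing. Signals of different probe sets depend on their probes, so levels are compared between groups of arrays and never between genes. Probe sets of close keratin relatives, and those of KRT8, KRT18 and KRT19 with their processed pseudogenes, may read each other's transcripts, so single keratin values are uncertain in this respect.

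Over named genes, r between the 2 arrays of each group was 0.997 to 0.998. Of the p53 target genes kept as a check of the treatment, 13 of 13 rose in each line, with a median log2 change of 0.97 in RKO, 1.14 in SW48 and 1.33 in HCT116. The extraction text in the labels mentions thyroid tissue. The 5 measured thyroid markers had summed linear signals of 178 to 199 in RKO, 205 to 219 in SW48 and 214 to 227 in HCT116, each of them dimmer than the median gene in every group. Measured markers of intestinal epithelium, 4 of which are members, were 10 of 13. Their summed linear signal was 702 to 769 on RKO arrays, against 4411 to 4583 on SW48 arrays and 3981 to 4322 on HCT116 arrays. That sum was not carried evenly: EPCAM and KRT19 were far lower in RKO, whereas CDX2 averaged 7.52 in untreated RKO, against 9.6 in untreated SW48 and 7.38 in untreated HCT116. VIL1 averaged 5.71, 5.98 and 5.83 in the same 3 groups, and the median of the 10 markers was 5.88, 7.24 and 6.49. Of the 3 measured immune markers, CD68 had a group mean of 10.54 in untreated RKO, 8.59 in untreated SW48 and 8.56 in untreated HCT116, while CD14 and LYZ lay between 3.76 and 4.07 in all untreated groups. Whether these markers had a part in the line differences below was not tested.

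Probe sets are called dim or bright by whether they read below or above the median signal of the 14118 genes (6.47). This describes probe sets and says nothing of how much transcript one gene makes beside another. In 29 of 93 members the highest group mean reached that median, and these 29 are drawn in the plot of group means. The summed linear signal of all 93 members was 9982 and 10260 on the untreated RKO arrays. It was 23450 and 24210 on the untreated SW48 arrays, and 21100 and 21320 on the untreated HCT116 arrays.

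**Figure D1:**
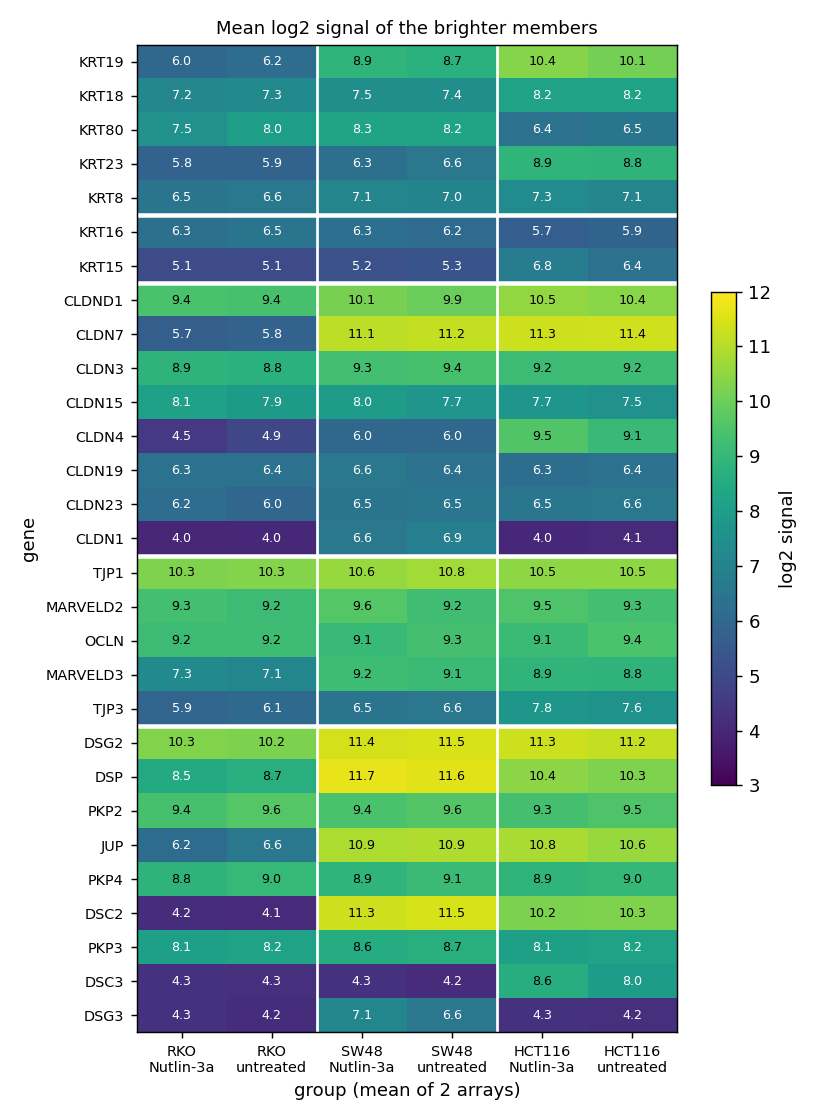
Mean log2 signal (colour and printed value) of the 29 brighter members, 1 row per gene in family blocks and 1 column per group, each the mean of 2 arrays. Colours may be compared along a row but not between rows; in the RKO columns DSC2, CLDN7 and JUP lie at 4.1 to 6.6, against 10.2 to 11.5 in the SW48 and HCT116 columns.

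Counted over all 93 members, most of them dim, members differed between untreated lines less often than genes in general. Most of the calls that involved RKO were lower there. DSC2, CLDN7, JUP, KRT19, DSP and MARVELD3, all parts of the epithelial cell contact or its filament system, were lower in untreated RKO than in both other lines. Between untreated RKO and untreated SW48, 35 of 93 members differed, 5 higher and 30 lower in RKO (all genes: 44.7% differed, 23.6% higher and 21.1% lower). Between untreated RKO and untreated HCT116 the count was also 35, with 7 higher and 28 lower in RKO (all genes: 41.5% differed, 22.4% higher and 19.0% lower). Between untreated SW48 and untreated HCT116, 31 members differed, 17 higher and 14 lower in SW48 (all genes: 44.9% differed, 22.7% higher and 22.1% lower). The shares of members that differed, 37.6%, 37.6% and 33.3%, were below those of all genes in each comparison. The highest group mean reached the median signal in 31.2% of members, against 56.1% of all genes. In the fit without dim genes, 21, 21 and 18 of the 29 brighter members differed. That fit kept genes by their highest group mean, which can favour genes that differ between lines. In the fit of all genes, 69%, 72.4% and 62.1% of the 29 differed. Among the 7925 genes kept by the same rule, the shares were 66%, 60.7% and 66.4%. The part of signal level in the lower shares over all 93 members was not tested.

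The median log2 difference over all 93 members was -0.13 for RKO minus SW48 and -0.092 for RKO minus HCT116, beside 0.014 for all genes in both. For SW48 minus HCT116 it was 0.057, beside -0.00093 for all genes. These 3 comparisons share their control arrays in pairs, so their counts are not independent of each other. Of the 52 members that differed in at least 1 of them, 18 were lower in RKO than in both other lines, 9 were highest in SW48, 5 were highest in HCT116 and 3 were highest in RKO. These joint patterns were counted for members only, so whether their shares differ from those of all genes is not known. Cell line cannot be told apart here from any culture or array batch that went with it, nor, in bulk RNA, fewer cells of a type from less RNA per cell.

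Among the simple epithelial keratins, RKO was lower than HCT116 in 6 of 7 and higher in 1, and lower than SW48 in 4 of 7. The matching shares of all genes were 19.0%, 22.4% and 21.1%. KRT19, an acidic keratin of simple and ductal epithelia, gave 6.02 and 6.42 in untreated RKO, 8.79 and 8.70 in untreated SW48, and 10.10 and 10.15 in untreated HCT116. The 3 lines did not overlap: RKO minus SW48 was -2.52 ± 0.22 (adjusted p = 5.83e-06) and RKO minus HCT116 was -3.91 ± 0.22 (adjusted p = 2.82e-07). KRT23, another type I keratin, had 5.91 and 5.84 in untreated RKO, 6.58 and 6.56 in untreated SW48, and 8.85 and 8.85 in untreated HCT116. Here the HCT116 arrays were far above the rest: SW48 minus HCT116 was -2.28 ± 0.078 (adjusted p = 6.95e-09) and RKO minus HCT116 was -2.98 ± 0.078 (adjusted p = 1.16e-09). KRT80, a type II keratin, ran the other way, with 8.12 and 7.96 in untreated RKO and 8.34 and 8.15 in untreated SW48, against 6.58 and 6.45 in untreated HCT116. It was lowest in HCT116 in both comparisons, by 1.53 ± 0.09 (RKO minus HCT116, adjusted p = 4.19e-07) and 1.73 ± 0.09 (SW48 minus HCT116, adjusted p = 1.48e-07).

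KRT8 and KRT18, the founding keratin pair of simple epithelia and neighbours on chromosome 12, differed much less. KRT8 had 6.58 and 6.61 in untreated RKO, 7.06 and 7.04 in untreated SW48, and 7.06 and 7.15 in untreated HCT116, so the RKO arrays alone stood apart, 1.37-fold below SW48 and 1.42-fold below HCT116. KRT18 had 7.24 and 7.32 in untreated RKO, 7.45 and 7.42 in untreated SW48, and 8.23 and 8.13 in untreated HCT116. Its HCT116 arrays stood highest, and RKO minus SW48 (-0.16 ± 0.073, adjusted p = 0.117) did not pass. KRT20, a keratin of differentiated intestinal cells, was dim throughout, at 4.17 and 4.17 in untreated RKO, 4.34 and 4.47 in untreated SW48, and 5.24 and 5.29 in untreated HCT116. The ordering was the same as for KRT19, at -0.23 ± 0.064 for RKO minus SW48 and -1.10 ± 0.064 for RKO minus HCT116. KRT7, known from ductal epithelia, was higher in HCT116 (5.82 and 5.76) than in RKO (4.85 and 4.99) and SW48 (5.28 and 4.83), and the RKO and SW48 arrays overlapped.

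Of the 27 keratins of stratified epithelia and related types, 4 were lower in RKO than in SW48 and 4 lower and 2 higher in RKO than in HCT116 (all genes: 21.1%, 19.0% and 22.4%). KRT15, a type I keratin of basal keratinocytes whose gene neighbours KRT19 on chromosome 17, was again lowest in RKO, at 5.03 and 5.15, with 5.33 and 5.34 in untreated SW48 and 6.44 and 6.33 in untreated HCT116. RKO minus HCT116 was -1.30 ± 0.083 (adjusted p = 8.33e-07). KRT5, the type II keratin of the basal layer, was the reverse case in SW48, which had 5.08 and 5.00 against 4.36 and 4.39 in untreated RKO and 4.18 and 4.40 in untreated HCT116. SW48 was thus higher than HCT116 by 0.75 ± 0.091 (adjusted p = 7.10e-05), and RKO minus SW48 was -0.66 ± 0.091 (adjusted p = 0.000167). KRT16, a keratin that stressed keratinocytes make, was higher in RKO than in HCT116 by 0.58 ± 0.15, and that call was lost without untreated HCT116 array 2 or untreated RKO array 2 (adjusted p up to 0.0811).

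In the hair keratins every group mean lay below the median gene, and 4, 3 and 4 of 13 differed for RKO minus SW48, RKO minus HCT116 and SW48 minus HCT116 (all genes: 44.7%, 41.5% and 44.9%). KRT32, a type I hair keratin, was highest in HCT116, with 4.90 and 5.22, against 3.96 and 4.23 in untreated RKO and 3.98 and 4.12 in untreated SW48. KRT31, from the hair cortex, was highest in SW48, with 6.20 and 6.25, against 5.49 and 5.09 in untreated RKO and 5.72 and 5.38 in untreated HCT116. Its SW48 minus HCT116 difference of 0.68 ± 0.21 passed at an adjusted p of 0.0216 and was lost without untreated HCT116 array 2 or either untreated SW48 array (adjusted p up to 0.148). Hair keratin genes are close relatives, so which of them gave these signals is uncertain.

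Claudins differed from line to line gene by gene. Of 26, 9 were lower and 3 higher in RKO than in SW48, 8 lower and 3 higher in RKO than in HCT116, and 3 lower and 2 higher in SW48 than in HCT116. Shares of all genes, in the same order, were 21.1% and 23.6%, 19.0% and 22.4%, and 22.1% and 22.7%. CLDN7, a claudin of the lateral membrane that binds EPCAM in gut epithelium, gave 6.02 and 5.66 in untreated RKO, 11.17 and 11.14 in untreated SW48, and 11.38 and 11.34 in untreated HCT116. The RKO arrays lay 39.8-fold below SW48 (-5.32 ± 0.17, adjusted p = 4.29e-09) and 45.9-fold below HCT116 (-5.52 ± 0.17, adjusted p = 4.30e-09), while SW48 minus HCT116 was -0.21 ± 0.17 and did not pass (adjusted p = 0.387). EPCAM itself, no member, gave 6.43 and 5.64 in untreated RKO, 11.11 and 11.12 in untreated SW48, and 11.04 and 10.99 in untreated HCT116.

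CLDN4 and CLDN3 are adjacent genes on chromosome 7 for sealing claudins that also bind a clostridial enterotoxin, and they did not follow the same pattern. CLDN4 had 4.92 and 4.90 in untreated RKO, 6.03 and 6.06 in untreated SW48, and 9.05 and 9.04 in untreated HCT116. All 3 lines were apart, SW48 by 8.01-fold below HCT116 (adjusted p = 5.84e-09) and RKO by 17.6-fold below HCT116 (-4.14 ± 0.1, adjusted p = 5.84e-10). CLDN3 had 8.73 and 8.78 in untreated RKO, 9.36 and 9.42 in untreated SW48, and 9.32 and 9.11 in untreated HCT116. The RKO arrays were again lowest, but the differences were -0.64 ± 0.079 for RKO minus SW48 and -0.46 ± 0.079 for RKO minus HCT116.

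CLDN1, a barrier claudin best known from the epidermis, was high in SW48 alone. It gave 6.85 and 6.90 in untreated SW48, against 3.92 and 4.13 in untreated RKO and 4.02 and 4.09 in untreated HCT116. RKO minus SW48 was -2.85 ± 0.12 (adjusted p = 2.54e-08) and SW48 minus HCT116 was 2.82 ± 0.12 (adjusted p = 3.30e-08). The neighbouring gene CLDN16, a claudin of the kidney tubule, was also highest in SW48, at 4.02 and 3.92, against 3.47 and 3.42 in untreated RKO and 3.42 and 3.43 in untreated HCT116. CLDN15, which forms a cation pore in the intestine, was highest in RKO, at 7.86 and 7.94, with 7.66 and 7.70 in untreated SW48 and 7.54 and 7.55 in untreated HCT116. Its excess over SW48 (0.22 ± 0.069) was lost without either untreated SW48 array or untreated RKO array 2 (adjusted p up to 0.139), and that over HCT116 (0.36 ± 0.069) had an adjusted p of 0.00201. CLDN2, the pore claudin of leaky epithelia, ranged from 5.28 to 5.53 over the 6 untreated arrays and passed in no comparison of lines.

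CLDND1, a claudin-domain gene, was the member with more than 1 named probe set, and its 2 probe sets disagreed. The brighter read 9.39 and 9.35 in untreated RKO, 9.92 and 9.98 in untreated SW48, and 10.43 and 10.38 in untreated HCT116, a difference of -0.46 ± 0.075 for SW48 minus HCT116 (adjusted p = 0.000592). The dimmer read 6.57 and 6.81 in untreated RKO, 7.20 and 7.04 in untreated SW48, and 7.18 and 6.92 in untreated HCT116, a difference of 0.072 for SW48 minus HCT116 (adjusted p = 0.646). Both probe sets read lowest in untreated RKO.

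Of the tight junction MARVEL and plaque genes, MARVELD3 had 7.22 and 7.06 in untreated RKO, 9.08 and 9.15 in untreated SW48, and 8.85 and 8.86 in untreated HCT116, which put RKO 3.93-fold below SW48 and 3.28-fold below HCT116 (adjusted p = 9.47e-09 and 3.48e-08). TJP3, the gene for the plaque protein ZO-3, had 6.13 and 6.01 in untreated RKO, 6.60 and 6.56 in untreated SW48, and 7.46 and 7.73 in untreated HCT116, again with RKO lowest and HCT116 highest. TJP1, the gene for ZO-1, differed less, with 10.36 and 10.28 in untreated RKO, 10.79 and 10.70 in untreated SW48, and 10.44 and 10.49 in untreated HCT116. OCLN, the gene for occludin, was lower in RKO than in HCT116 (-0.25 ± 0.062, adjusted p = 0.00836), and MARVELD2, the gene for tricellulin, which seals contacts where 3 cells meet, passed in none of the 3 comparisons.

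**Figure D2:**
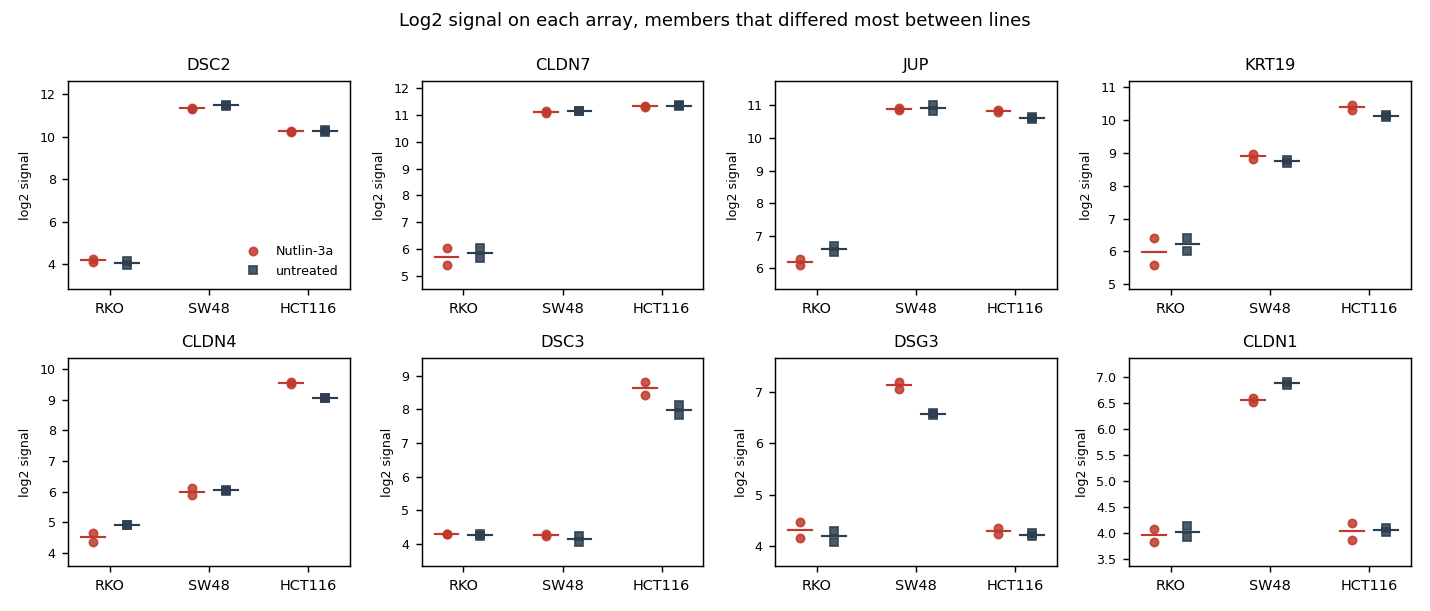
Log2 signal on each array for 8 members that differed most between lines, with Nutlin-3a arrays (red circles) left of untreated arrays (dark squares) in each line and a bar at the mean of 2 arrays; each panel has its own axis. In RKO, DSC2, CLDN7 and JUP lie below 7 on every array and in the other lines above 10, while DSC3 is high in HCT116 alone and DSG3 and CLDN1 are high in SW48 alone.

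The desmosome genes held the widest signal difference, that of DSC2. Of 13, 8 were lower in RKO than in SW48 and 5 lower in RKO than in HCT116, with 0 higher in either, and 8 were higher and 1 lower in SW48 than in HCT116. For all genes the shares were 21.1% and 19.0% lower in RKO, 23.6% and 22.4% higher in RKO, and 22.7% higher and 22.1% lower in SW48. The 7 desmosomal cadherin genes form 1 cluster on chromosome 18, in the order DSC3, DSC2, DSC1, DSG1, DSG4, DSG3, DSG2, and the lines differed in which of them were bright. DSC2, the desmocollin of simple epithelia, gave 4.15 and 3.97 in untreated RKO, 11.48 and 11.45 in untreated SW48, and 10.22 and 10.32 in untreated HCT116. The RKO arrays lay 169-fold below SW48 (-7.40 ± 0.076, adjusted p = 6.53e-12) and 73.9-fold below HCT116 (-6.21 ± 0.076, adjusted p = 1.42e-11). Both RKO signals lie below the median of all probe sets on their arrays (4.97 and 5.00), where no detection call shows a signal above background, so these folds compare signals and do not measure the ratio of transcripts. DSG2, its desmoglein counterpart, was bright everywhere, with 10.29 and 10.17 in untreated RKO, 11.46 and 11.47 in untreated SW48, and 11.17 and 11.20 in untreated HCT116, so that RKO was 2.34-fold below SW48 and 1.94-fold below HCT116.

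DSC3, next to DSC2 and known from basal layers of stratified epithelia, was high in HCT116 alone. It gave 7.84 and 8.12 in untreated HCT116, against 4.29 and 4.23 in untreated RKO and 4.07 and 4.25 in untreated SW48. RKO minus HCT116 was -3.72 ± 0.13 (adjusted p = 8.34e-09) and SW48 minus HCT116 was -3.82 ± 0.13 (adjusted p = 5.68e-09), while the RKO and SW48 arrays overlapped. DSG3 and DSG4, desmogleins of stratified epithelia and hair, were highest in SW48 instead, though DSG4 was dim in every group. DSG3 had 6.58 and 6.54 in untreated SW48, against 4.08 and 4.29 in untreated RKO and 4.25 and 4.19 in untreated HCT116 (SW48 minus HCT116 2.34 ± 0.11, adjusted p = 6.58e-08). DSG4 had 5.80 and 6.01 in untreated SW48, against 4.32 and 4.28 in untreated RKO and 4.57 and 4.45 in untreated HCT116 (SW48 minus HCT116 1.40 ± 0.14, adjusted p = 1.55e-05). DSG1 and DSC1, of the upper epidermis, were dim, between 3.14 and 4.04 on all untreated arrays.

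**Figure D3:**
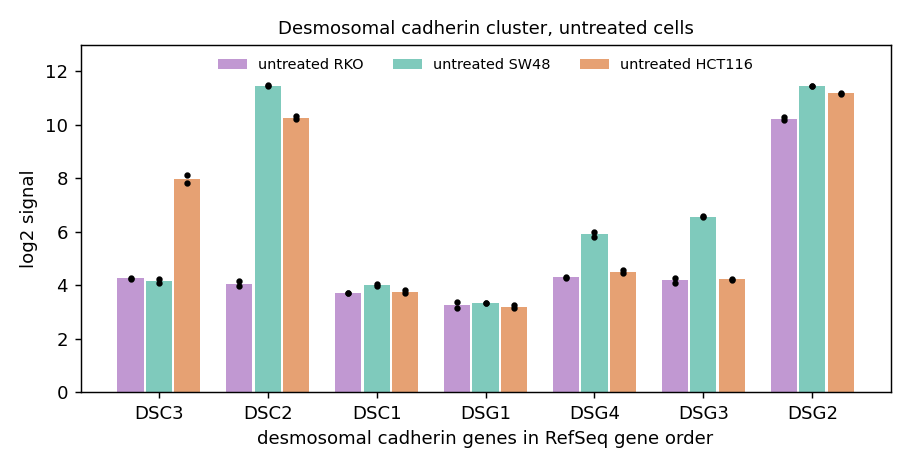
Log2 signal of the 7 desmosomal cadherin genes in untreated cells, drawn in their RefSeq gene order, with bars for the mean of 2 arrays and points for the arrays; bars are comparable within a gene, not between genes. DSC3 is high in HCT116, DSG4 and DSG3 are highest in SW48, DSC2 is near 4 in RKO and above 10 in the others, and DSG2 is above 10 in all 3 lines.

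Among the plaque genes, JUP, which encodes plakoglobin, had 6.69 and 6.50 in untreated RKO, 11.01 and 10.84 in untreated SW48, and 10.59 and 10.63 in untreated HCT116. RKO was 20-fold below SW48 (-4.32 ± 0.091, adjusted p = 1.98e-10) and 16.2-fold below HCT116 (-4.01 ± 0.091, adjusted p = 3.95e-10). DSP, for the desmoplakin that carries the keratin attachment, had 8.71 and 8.64 in untreated RKO, 11.66 and 11.51 in untreated SW48, and 10.21 and 10.30 in untreated HCT116, with every line apart and SW48 highest. PKP3 was highest in SW48 (8.69 and 8.68, against 8.26 and 8.13 in untreated RKO and 8.06 and 8.30 in untreated HCT116). The other 3 plakophilin genes, PKP1, PKP2 and PKP4, differed between no 2 untreated lines. PKP2, for example, had 9.63 and 9.63 in untreated RKO, 9.62 and 9.58 in untreated SW48, and 9.49 and 9.56 in untreated HCT116.

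Against these line differences, the changes under Nutlin-3a were few and small. The members that passed in a line were 4 keratins (KRT5, KRT15, KRT40 and KRT80), CLDN4, OCLN, MARVELD2 and the desmosomal cadherins DSC3 and DSG3. In RKO 1 of 93 members changed, 0 higher and 1 lower (all genes: 2.02% changed, 1.23% higher and 0.793% lower). In SW48 4 changed, 4 higher and 0 lower (all genes: 3.12% changed, 1.38% higher and 1.74% lower). In HCT116 4 changed, 3 higher and 1 lower (all genes: 5.11% changed, 3.08% higher and 2.03% lower). These shares, 1.08%, 4.3% and 4.3% of members, are near those of all genes. No member changed by as much as 2-fold in any line, the range of log2 changes being -0.50 to 0.54 in RKO, -0.32 to 0.65 in SW48 and -0.38 to 0.64 in HCT116. The median log2 change over members was 0.0048 in RKO, 0.02 in SW48 and -0.01 in HCT116, beside -0.0068, -0.013 and -0.011 for all genes.

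**Figure D4:**
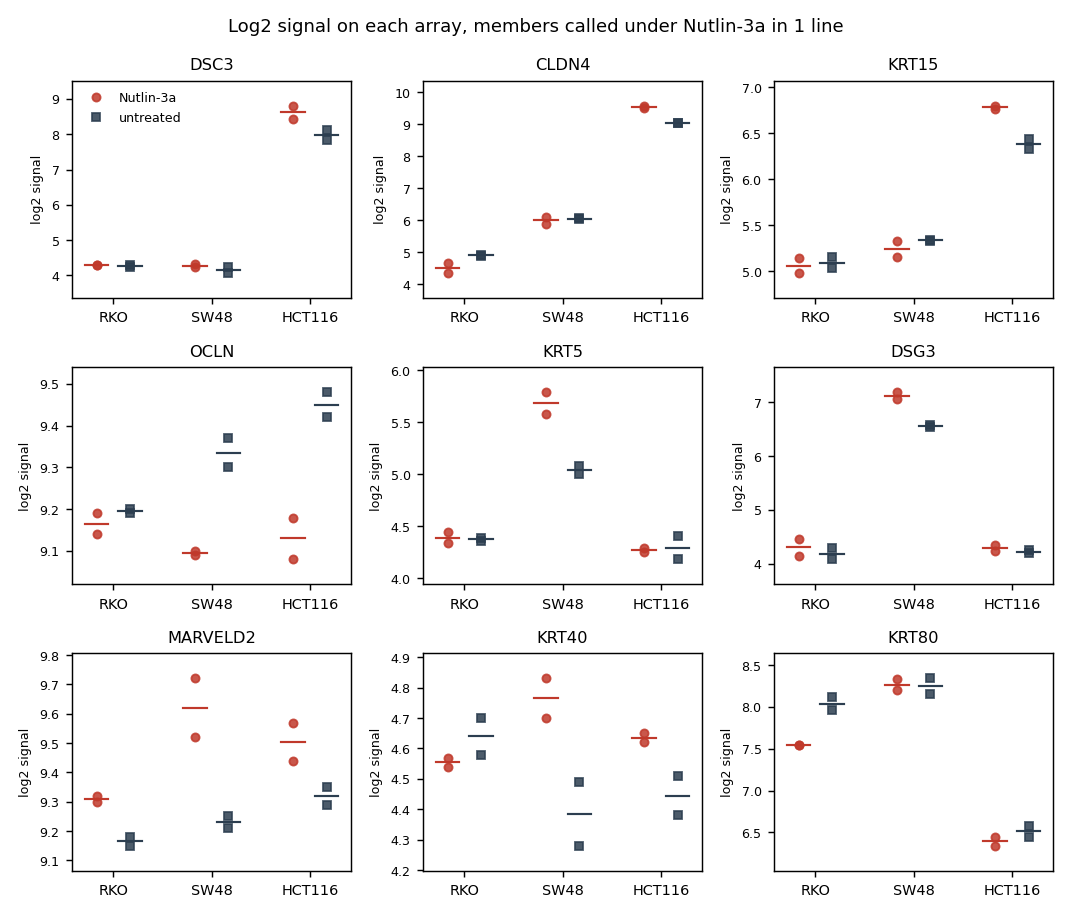
Log2 signal on each array for the 9 members that changed under Nutlin-3a in 1 line, with Nutlin-3a arrays (red circles) left of untreated arrays (dark squares) and a bar at the mean of 2 arrays; each panel has its own axis. DSC3, CLDN4 and KRT15 are raised on both treated HCT116 arrays, KRT5 and DSG3 on both treated SW48 arrays, and KRT80 is lowered on both treated RKO arrays.

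Keratins accounted for 4 of the 9. KRT5 had 5.58 and 5.79 in Nutlin-3a-treated SW48, against 5.08 and 5.00 in untreated SW48. Both treated arrays lay above both untreated ones, a rise of 0.65 ± 0.091 (1.57-fold, adjusted p = 0.00472). It passed in each alternative fit that held the gene (adjusted p up to 0.0485), and the fit without dim genes did not hold it. The KRT5 probe set was dim in every group, its highest group mean being 5.69, against 6.47 for the median gene. In the other lines KRT5 stayed at 4.18 to 4.44 on all 8 arrays (RKO 0.015 ± 0.091, HCT116 -0.022 ± 0.091). Of the 6 measured markers of squamous and basal epithelium, KRT5 among them, 0 reached the median gene in any group. KRT14, another of these markers, had 5.64 and 5.57 in treated SW48, against 5.23 and 5.82 in untreated SW48. KRT1, KRT10 and KRT14 passed in no line. In SW48 KRT15 had 5.33 and 5.15 treated, against 5.33 and 5.34 untreated. KRT15 had 6.80 and 6.76 in treated HCT116, against 6.44 and 6.33 in untreated HCT116, a rise of 0.40 ± 0.083 (adjusted p = 0.0245) that was lost when any of the 4 HCT116 arrays was left out (adjusted p up to 0.142). KRT80 had 7.55 and 7.54 in treated RKO, against 8.12 and 7.96 in untreated RKO, a change of -0.50 ± 0.09 (adjusted p = 0.0249) that was lost without any 1 of the 4 RKO arrays (adjusted p up to 0.151). KRT40, a type I hair keratin that was dim in every group, had 4.70 and 4.83 in treated SW48, against 4.28 and 4.49 in untreated SW48. Its rise of 0.38 ± 0.086 (adjusted p = 0.0469) was lost in 11 of the 12 fits that left out 1 array, all but the one without untreated SW48 array 2 (adjusted p up to 0.258).

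The colonic keratins KRT8, KRT18, KRT19 and KRT20 passed in no line. KRT8, for instance, had 6.26 and 6.64 in treated RKO and 6.58 and 6.61 in untreated RKO, 7.18 and 7.05 in treated SW48 and 7.06 and 7.04 in untreated SW48, and 7.40 and 7.25 in treated HCT116 and 7.06 and 7.15 in untreated HCT116. The largest change among these 4 genes was 0.25 ± 0.22 for KRT19 in HCT116 (adjusted p = 0.603).

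In the tight junction, CLDN4 had 9.50 and 9.58 in treated HCT116, against 9.05 and 9.04 in untreated HCT116, a rise of 0.49 ± 0.1 (1.41-fold, adjusted p = 0.0221). The call was lost without any 1 of the 4 HCT116 arrays (adjusted p up to 0.13). In RKO the same gene had 4.66 and 4.36 under Nutlin-3a, against 4.92 and 4.90 in untreated cells (-0.40 ± 0.1, adjusted p = 0.078), and in SW48 6.11 and 5.89, against 6.03 and 6.06. OCLN had 9.08 and 9.18 in treated HCT116, against 9.48 and 9.42 in untreated HCT116, a change of -0.32 ± 0.062 (adjusted p = 0.0182). It was lost without either untreated HCT116 array or Nutlin-3a HCT116 array 1 (adjusted p up to 0.136). MARVELD2, the neighbour of OCLN on chromosome 5, moved the other way: it had 9.72 and 9.52 in treated SW48, against 9.21 and 9.25 in untreated SW48. That rise of 0.39 ± 0.078 (adjusted p = 0.0262) was lost without either untreated SW48 array or Nutlin-3a SW48 array 1 (adjusted p up to 0.152). CLDN1, CLDN2, CLDN3, CLDN7, MARVELD3, TJP1 and TJP3 passed in no line.

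Both desmosomal genes that changed were cadherins, and each did so in the line where it was already high. DSC3 had 8.43 and 8.81 in treated HCT116, against 7.84 and 8.12 in untreated HCT116. The groups did not overlap, the rise was 0.64 ± 0.13 (1.55-fold, adjusted p = 0.0203), and it was lost without untreated HCT116 array 1 or Nutlin-3a HCT116 array 2 (adjusted p up to 0.152). DSG3 had 7.19 and 7.06 in treated SW48, against 6.58 and 6.54 in untreated SW48. This rise of 0.56 ± 0.11 (1.48-fold, adjusted p = 0.0227) was lost without any 1 of the 4 SW48 arrays (adjusted p up to 0.141). In the lines where their signal was low, DSC3 changed by 0.028 ± 0.13 in RKO and 0.11 ± 0.13 in SW48, and DSG3 by 0.11 ± 0.11 in RKO and 0.079 ± 0.11 in HCT116. DSP, JUP, DSC2, DSG2 and PKP3 passed in no line.

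Averaged over the 3 lines, 9 of 93 members changed, 5 higher and 4 lower (all genes: 10.8% changed, 4.33% higher and 6.44% lower). Small shifts that ran the same way in every line came up here. PKP2, a plakophilin of simple epithelia and heart, had 9.37 and 9.42 in treated RKO against 9.63 and 9.63 untreated, 9.41 and 9.38 in treated SW48 against 9.62 and 9.58 untreated, and 9.33 and 9.33 in treated HCT116 against 9.49 and 9.56 untreated. No treated array reached an untreated one of its line, and the mean change was -0.21 ± 0.033 (adjusted p = 0.00304). CLDN15 had 8.21 and 8.07 in treated RKO against 7.86 and 7.94 untreated, 7.95 and 7.94 in treated SW48 against 7.66 and 7.70 untreated, and 7.79 and 7.66 in treated HCT116 against 7.54 and 7.55 untreated. Here each treated array lay above both untreated arrays of its line, with a mean change of 0.23 ± 0.04 (adjusted p = 0.00597). MARVELD2 (0.24 ± 0.045, adjusted p = 0.00837) and OCLN (-0.20 ± 0.036, adjusted p = 0.00716) changed in opposite directions. OCLN hardly moved in RKO, with 9.14 and 9.19 treated against 9.20 and 9.19 untreated. PKP2, CLDN15, MARVELD2 and OCLN all kept their call in each fit that left out 1 array.

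The other 5 mean changes depended on single arrays. KRT72, a keratin of the hair follicle's inner root sheath (0.30 ± 0.082, adjusted p = 0.044), and PKP4 (-0.17 ± 0.047, adjusted p = 0.0452) were each lost in 10 of 12 fits that left out 1 array. KRT72 passed only without untreated SW48 array 1 or untreated RKO array 1, and PKP4 only without Nutlin-3a SW48 array 2 or Nutlin-3a RKO array 2 (adjusted p up to 0.107 and 0.114). DSG3 (0.25 ± 0.063, adjusted p = 0.0309) was lost in 9, KRT5 (0.21 ± 0.053, adjusted p = 0.03) in 8 and KRT80 (-0.20 ± 0.052, adjusted p = 0.0364) in 8 of them, spread over arrays of all 3 lines (adjusted p up to 0.0816, 0.0764 and 0.0957).

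**Figure D5:**
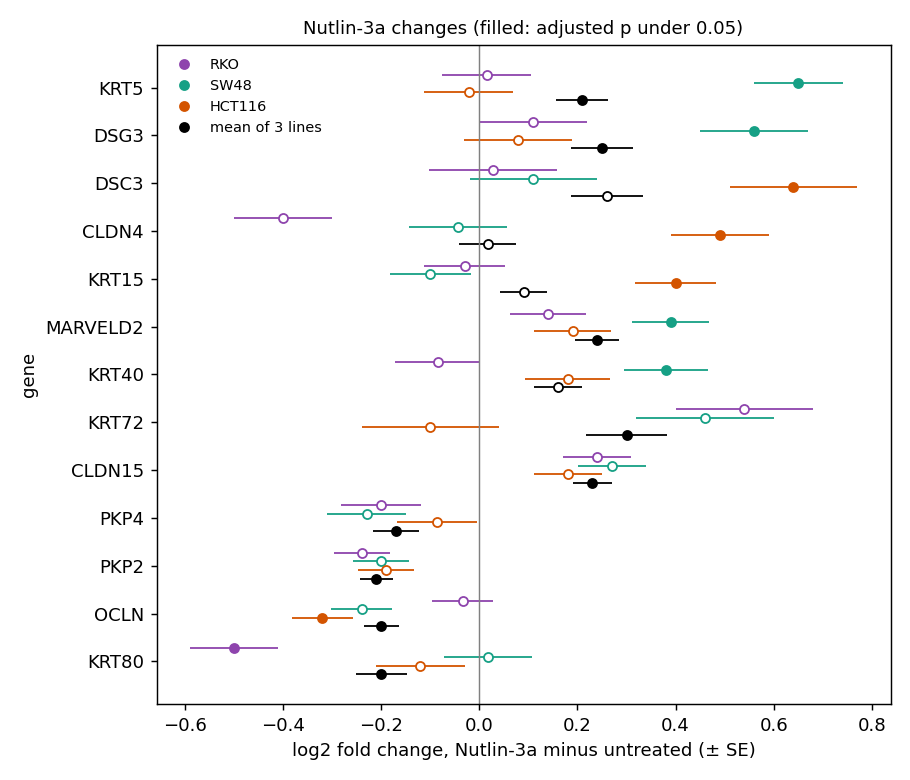
Log2 fold change, Nutlin-3a minus untreated, with standard error, for the 13 members that changed in a line or on average (RKO purple, SW48 green, HCT116 orange, mean of 3 lines black; filled symbols have an adjusted p under 0.05). KRT5, DSG3, MARVELD2 and KRT40 are filled in SW48, DSC3, CLDN4, KRT15 and OCLN in HCT116 and KRT80 in RKO. PKP2, CLDN15, KRT72 and PKP4 are filled for the mean alone, PKP2 and CLDN15 with nearly equal changes in the 3 lines.

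None of these changes was shown to differ between the lines. The F test of equal Nutlin-3a effects, from limma with Benjamini-Hochberg adjustment, called 0 of 93 members (all genes: 0.503%). CLDN4 came nearest (adjusted p = 0.0603), with -0.40 in RKO, -0.044 in SW48 and 0.49 in HCT116, followed by KRT5 (adjusted p = 0.0767). CLDN4 was called by this test in 4 of the alternative fits, at an adjusted p between 0.0137 and 0.0423. JUP had 6.29 and 6.10 in treated RKO against 6.69 and 6.50 untreated, and 10.81 and 10.86 in treated HCT116 against 10.59 and 10.63 untreated. Neither change passed (RKO -0.40 ± 0.091, adjusted p = 0.0576; HCT116 0.22 ± 0.091, adjusted p = 0.206), nor did the test between lines (adjusted p = 0.131).

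Promoter windows were available for 67 of the 93 members, from RefSeq on GRCh38.p14, and the 250 bases before each gene's start were searched on both strands for 4 motifs. A p53 half-site, the 10-base unit of which a p53 response element holds a pair, was in 11 of 67 member windows (16.4%), compared with 5.13% of the 10568 windows of named genes and 5.53% of all 27305 windows. CACCTG, an E-box read by SNAI and ZEB repressors of epithelial genes, was in 20.9% of member windows, 16.8% of those of named genes and 17.5% of all. The AP-1 site TGANTCA was in 5.97%, 5.03% and 6.6%, and the grainyhead core ACCNGGT in 2.99%, 3.96% and 3.77%. Member windows were poorer in G and C, with a median of 48%, beside 62.8% for named genes and 58% for all windows. A match describes letters in the window and does not show that a factor binds there, and the part of base composition in these shares was not tested.

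Of the 11 members with a half-site, 3 changed under Nutlin-3a in a line (DSC3, DSG3 and KRT5) and 8 passed in none (CLDN18, KRT2, KRT8, KRT10, KRT20, KRT25, KRT76 and TJP3). Of the other members that changed, CLDN4, KRT40, MARVELD2 and OCLN had windows with no half-site, and KRT15 and KRT80 had no window. A further 52 members had windows with no half-site and passed in no line. Whether half-sites go with changes under Nutlin-3a was not tested.

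Windows are printed for 5 genes that carried the results: the 2 basal desmosomal cadherins that rose, the desmocollin that was dim in RKO, and the keratin and the claudin that rose most. DSC3 (chr18:31042743-31042992, minus strand) holds a p53 half-site 57 bases before the start and DSG3 (chr18:31447491-31447740, plus strand) holds one 218 bases before it. DSC2 (chr18:31102422-31102671, minus strand) holds CACCTG, read on the other strand, 156 bases before the start. KRT5 (chr12:52520395-52520644, minus strand) holds the same E-box at 130 bases and a p53 half-site at 97. CLDN4 (chr7:73830746-73830995, plus strand) holds AP-1 sites at 242 and 161 bases. Distances run to the first base of the motif, the sequences read 5′ to 3′ along the gene's strand, and capitals mark the motifs.
DSC3: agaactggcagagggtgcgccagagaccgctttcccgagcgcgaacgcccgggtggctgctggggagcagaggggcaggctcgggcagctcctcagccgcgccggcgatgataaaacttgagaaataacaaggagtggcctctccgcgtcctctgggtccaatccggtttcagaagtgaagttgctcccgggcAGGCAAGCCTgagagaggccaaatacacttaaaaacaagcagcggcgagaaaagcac
DSG3: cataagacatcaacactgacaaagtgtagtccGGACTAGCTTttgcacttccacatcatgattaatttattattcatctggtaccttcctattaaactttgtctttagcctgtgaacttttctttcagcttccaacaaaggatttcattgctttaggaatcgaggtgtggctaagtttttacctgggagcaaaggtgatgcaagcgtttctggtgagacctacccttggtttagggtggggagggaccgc
DSC2: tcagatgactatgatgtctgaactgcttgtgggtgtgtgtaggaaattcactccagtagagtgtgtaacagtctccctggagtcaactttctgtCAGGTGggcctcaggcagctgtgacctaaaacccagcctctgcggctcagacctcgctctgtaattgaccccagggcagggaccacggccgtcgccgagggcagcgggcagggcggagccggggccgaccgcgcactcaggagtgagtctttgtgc
KRT5: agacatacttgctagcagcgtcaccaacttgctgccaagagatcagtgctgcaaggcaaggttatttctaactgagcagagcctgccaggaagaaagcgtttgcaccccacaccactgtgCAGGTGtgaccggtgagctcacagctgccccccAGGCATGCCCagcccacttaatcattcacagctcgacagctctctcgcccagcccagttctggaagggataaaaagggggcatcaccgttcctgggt
CLDN4: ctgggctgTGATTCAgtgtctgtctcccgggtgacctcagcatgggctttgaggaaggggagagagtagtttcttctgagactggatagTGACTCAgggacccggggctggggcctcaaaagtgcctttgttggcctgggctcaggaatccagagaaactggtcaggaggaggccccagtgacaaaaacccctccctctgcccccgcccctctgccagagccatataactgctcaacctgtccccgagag

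Partner genes of these structures were counted from lists with no members in them. Over all genes, 1.23%, 1.38% and 3.08% rose under Nutlin-3a in RKO, SW48 and HCT116, and 0.793%, 1.74% and 2.03% fell. Of 8 measured adherens junction partners (of 17 listed), 2, 1 and 2 rose under Nutlin-3a in RKO, SW48 and HCT116, and 0 fell. NECTIN4, a cell adhesion molecule that recruits afadin, had 7.37 and 7.55 in treated SW48, against 6.32 and 6.45 in untreated SW48 (1.08 ± 0.11, adjusted p = 0.000588). Both treated arrays were well above the untreated pair, and NECTIN4 rose in HCT116 as well (0.54 ± 0.11, adjusted p = 0.0229). ARVCF, a catenin that binds cadherin tails, rose in RKO (0.36 ± 0.068) and HCT116 (0.41 ± 0.068), and LIMA1 rose in RKO (0.31 ± 0.06). Of 26 measured tight junction and polarity partners (of 36), 1, 1 and 2 rose and 0 fell in RKO, SW48 and HCT116. PARD6G, a PAR6 polarity protein gene, rose by 0.55 ± 0.11 in RKO and 1.01 ± 0.11 in HCT116, and SCRIB, a basolateral polarity gene, rose by 0.42 ± 0.072 in SW48 and 0.35 ± 0.072 in HCT116. None of the 7 measured plakin and hemidesmosome genes (of 13) or the 3 gap junction partners (of 10) passed under Nutlin-3a in any line.

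Cornified envelope and keratinocyte genes, 24 of 28 measured, included 0, 1 and 2 that rose under Nutlin-3a in RKO, SW48 and HCT116, and 0 that fell. The shares of all genes were 1.23%, 1.38% and 3.08% that rose and 0.793%, 1.74% and 2.03% that fell. RPTN, a late epidermal protein gene, had 7.50 and 7.21 in treated SW48, against 5.82 and 5.85 in untreated SW48 (1.51 ± 0.13, adjusted p = 0.000171). CSTA (0.52 ± 0.12) and SFN (0.69 ± 0.063) rose in HCT116. Between untreated lines 8 of the 24 (33.3%) were lower and 1 higher in RKO than in SW48, and 8 lower and 0 higher in RKO than in HCT116, beside 21.1% and 19.0% of all genes that were lower. KLK7, a protease that cleaves desmosomal proteins in skin, had 5.00 and 5.81 in untreated RKO, 12.45 and 12.41 in untreated SW48, and 10.05 and 9.98 in untreated HCT116. PPL, for periplakin, a cytolinker of keratin filaments, was lower in RKO than in both lines, at -1.89 ± 0.1 for RKO minus SW48 and -1.98 ± 0.1 for RKO minus HCT116. The list of other intermediate filaments, 10 of 19 measured, also held KRTCAP2 and KRTCAP3, which are not filament genes. From that list VIM, the mesenchymal filament gene, fell in treated HCT116 (5.71 and 5.67, against 6.20 and 6.10 untreated, -0.46 ± 0.083, adjusted p = 0.0132). LMNA rose and LMNB1 fell in each line, and VIM passed between no 2 untreated lines.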

How the data were processed

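Each RNA sample was read on 1 of 12 Affymetrix Human Gene 2.0 ST arrays. The values are the authors' deposited log2 signals, 1 per probe set and array. Per the submitters' processing notes, GCOS was the software. Neither its version nor any background correction, probe summarization or scaling is given in the sources used here. Base 2 was inferred, since values run between 2.22 and 13.45, and column medians were 4.97 to 5.05. There were 0 sample columns left unused. The labels' growth text names HCT116 only, the extraction text mentions thyroids, and dye field and labelling text differ.

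Of 37270 probe sets, 14530 (39.0%) carried 1 gene symbol, 0 several and 22740 none in the platform's annotation. Gene types and promoter windows came from RefSeq on GRCh38.p14. Where a gene had several probe sets (395 genes), the one with the highest mean was used, which gave 14118 genes. All 12 arrays entered 1 limma model of 6 group means (limma 3.58.1, R 4.3.3, empirical Bayes with 6 residual and 3.71 prior degrees of freedom), with Benjamini-Hochberg adjustment over all genes and a threshold of 0.05. Contrasts set Nutlin-3a against untreated arrays within every line, averaged these 3 effects, tested by F whether they are equal, and compared the 3 pairs of untreated lines. The fit was tested on simulated data. The number of arrays limits the precision.

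The members, the gene lists and the motifs were chosen with earlier results of these data known. Named members are every member called under Nutlin-3a, the 10 called with the largest difference each way between untreated lines, a fixed set of colonic keratin and junction genes, and members with several probe sets; of the partner lists, up to 3 called genes. CLDN16, DSC1 and DSG1 are given beside their neighbours as well. Replicate numbers were checked and do not pair the arrays.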

Additional observations from a re-analysis of the deposited data

How the results depend on the processing

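Of the members called under Nutlin-3a (4 in HCT116, 4 in SW48, 1 in RKO, 9 on average), 2, 2, 1 and 4 were called when all probe sets were tested, and 1, 2 and 0 in the lines when only the arrays compared were fitted. At an adjusted p under 0.01 they were 0, 1, 0 and 4. Leaving out 1 array gave 0 to 5, 1 to 3, 0 to 1 and 4 to 7. An intensity trend with a robust prior, or leaving out dim genes, gave 5 in RKO either way. The F test between lines, 0 members at first, called 1 with arrays centred on their median, 4 with the trend and robust prior, 1 without dim genes and 0 to 1 without single arrays; the genes were CLDN4 in each, with DSP, JUP and KRT5 under the trend. Untreated lines differed in 21 (RKO minus SW48), 21 (RKO minus HCT116) and 18 (SW48 minus HCT116) members without dim genes, which leave 29 members in the fit, beside 35, 35 and 31 of 93; leaving out 1 array gave 30 to 35, 28 to 34 and 24 to 33. CLDND1 turned from -0.46 to 0.072 for SW48 minus HCT116 with its dimmer probe set, and no other named member changed sign in a call. Quantile normalization and median centring moved the median of all genes by less than 0.1.

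Same-numbered arrays of a line had deviations that correlated at 0.055 (HCT116), -0.039 (SW48) and -0.055 (RKO), so the numbers were not taken as pairs. With the replicate block, 1, 2 and 0 members were called under Nutlin-3a in HCT116, SW48 and RKO, 7 on average and 0 by the F test, and 38, 34 and 30 for RKO minus SW48, RKO minus HCT116 and SW48 minus HCT116. With the numbers of the untreated RKO arrays crossed, an alternative chosen after seeing the data, RKO minus HCT116 had 34.

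With 2 arrays a group, no array of a group can be singled out as deviating. Probe sets of most members are dim, and without detection calls their folds are those of signals only. KRT40, KRT2, CLDN12 and CLDN34 had calls that several left-out arrays lost: KRT2 in 7 fits and CLDN12 in 4 for RKO minus HCT116 (adjusted p up to 0.303 and 0.187), and CLDN34 in 8 and KRT40 in 6 for RKO minus SW48 (adjusted p up to 0.258 and 0.263).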

Other observations

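Transcription factors and splicing factors that are known to keep or to repress the epithelial state were read beside the members, from a list of which 23 of 28 genes were measured. Between untreated lines 12 were lower and 3 higher in RKO than in SW48, 7 lower and 5 higher in RKO than in HCT116, and 4 lower and 10 higher in SW48 than in HCT116. The shares that differed were 65.2%, 52.2% and 60.9%, beside 44.7%, 41.5% and 44.9% of all genes. ESRP1, an epithelial splicing factor, had 4.28 and 4.27 in untreated RKO, 10.67 and 10.75 in untreated SW48, and 10.56 and 10.54 in untreated HCT116. GRHL2, a grainyhead factor that binds genes of cell junctions, had 4.97 and 4.26 in untreated RKO, 8.98 and 8.87 in untreated SW48, and 8.58 and 8.56 in untreated HCT116. Their relatives did not share this: ESRP2 had 9.74 and 9.70 in untreated RKO, 9.53 and 9.59 in untreated SW48, and 9.16 and 9.23 in untreated HCT116, and GRHL1 had 7.55 and 7.35 in untreated RKO, 7.19 and 7.48 in untreated SW48, and 6.96 and 6.97 in untreated HCT116. SNAI2, a repressor of epithelial genes, ran the other way, at 7.92 and 7.97 in untreated RKO, 5.34 and 4.98 in untreated SW48, and 6.24 and 6.46 in untreated HCT116 (RKO minus SW48 2.78 ± 0.15, adjusted p = 2.15e-07).

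Under Nutlin-3a, GRHL3, an epidermal grainyhead factor, was the 1 gene of that list to change in a line (all genes: 2.02%, 3.12% and 5.11% in RKO, SW48 and HCT116). It had 7.28 and 7.62 in treated RKO, against 5.75 and 5.76 in untreated RKO, and 6.45 and 6.14 in treated HCT116, against 5.23 and 5.16 in untreated HCT116. In SW48, where it was bright, it had 9.87 and 10.02 under Nutlin-3a, against 9.90 and 9.68 in untreated cells (0.15 ± 0.13, adjusted p = 0.648). CDX2, the intestinal homeobox factor, was highest in SW48 (9.63 and 9.57 untreated, against 7.51 and 7.54 in untreated RKO and 7.42 and 7.34 in untreated HCT116) and passed under Nutlin-3a in no line.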
